A study of Arabidopsis thaliana with 10 samples.

Results

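The genes described here rose late in the cold in one Arabidopsis thaliana ecotype, C24, while in the ecotype Col they changed by less, though most were somewhat higher there too. They were chosen by their own measured values, as group means of the log2 signal. A probe set qualified when C24 after 3 h in the cold differed from C24 at room temperature by between -0.5 and 0.5, when C24 after 24 h exceeded C24 at room temperature by at least 1.2, and when Col after 24 h differed from Col at room temperature by between -0.75 and 0.75. Of 22746 probe sets that are no array controls, 130 met all 3 limits. The array annotation gave exactly 1 gene for 66 of them, several genes for 1 and none for 63. Among the 66, a gene symbol was given for 15, and 51 were known by a locus code alone and are named by it, without a role.

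The study compared the cold response of both ecotypes with Affymetrix arrays. Plants were grown on MS plates in a chamber set to 23/18 degrees, and cold was 4 degrees Celsius. The 5 groups, with 2 arrays each, were C24 kept at room temperature, C24 cold-treated for 3 h, C24 cold-treated for 24 h, Col cold-treated for 24 h and Col kept at room temperature. There was no 3 h group in Col. Leaf tissue and an age of 20 days stand in the sample labels, but the text of the series describes 14 days and seedlings. Both arrays of each group were biological replicates by that text. No harvest hour is stated in the sources used here, so the duration of cold and the time of day cannot be told apart.

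Cold acclimation in Arabidopsis runs in waves. A first wave of transcription factors is induced soon after transfer to the cold, and slower changes in sugar, flavonoid, redox, membrane and RNA metabolism follow. C24 and Col are natural accessions that differ in the frost tolerance they reach and in many DNA sequences. The 15 members with a symbol are taken below by what their products do, from glycosyl- and methyltransferases to transcription and transport. The order is for reading only, since no enrichment was tested.

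The name of the group, late rises in C24 and not in Col, held for C24 by construction and only in part for Col. In C24 after 24 h the members lay 1.2 to 3.42 above room temperature, with a median difference of 1.36. After 3 h in C24 the median difference from room temperature was 0.25, and 101 of the 130 were above 0. In Col after 24 h the differences from room temperature ran from -0.73 to 0.75 with a median of 0.41, and 102 of the 130 were above 0. Both Col arrays after 24 h lay above both Col room-temperature arrays for 96 members, where 35.9% of all probe sets did so, and below both for 23, where 36.3% of all probe sets did. Only 33 members lay within 0.25 of 0 in Col, while 54 lay above 0.5. Most members were thus somewhat higher in cold Col too, and the group is one of larger rises in C24 rather than of rises absent from Col. These are descriptions of the values that chose the members, and no test is given for them.

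**Figure D1:**
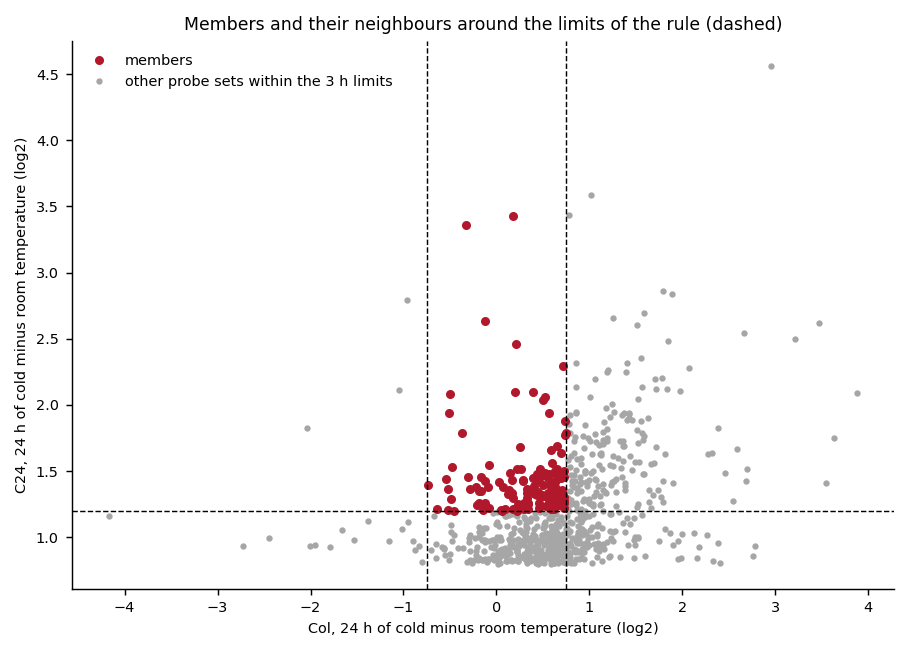
Change in C24 after 24 h of cold (vertical, log2) against change in Col after 24 h (horizontal, log2) for the 130 members (red) and for other probe sets within the 3 h limits that changed by 0.8 or more in C24 (grey); dashed lines mark the limits. Members crowd against the lower C24 limit and the upper Col limit, and 190 probe sets that met both C24 limits lay to the right of the Col limit.

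The limits cut through a continuous range. With both C24 limits applied and Col ignored, 323 probe sets remained, of which 190 were above the upper Col limit and 3 below the lower one. Within 0.1 above the C24 limit lay 43 members, and 37 other probe sets that met the remaining limits lay within 0.1 below it. Among members with a single gene, those nearest the limit were AT2G47010, AT3G27270 and AT2G35790, with C24 changes of 1.2, 1.21 and 1.22. Just outside it, among probe sets with a single gene, were AT5G58420, AT4G31980 and AT4G33040, with 1.1985, 1.19 and 1.19. Along the upper Col limit, 24 members lay within 0.1 inside and 25 other probe sets within 0.1 outside.

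Replicate arrays correlated at 0.99725 to 0.99829, and the standard error of a difference between groups was 0.0849 in the median over members. The C24 arrays differed from the Col arrays in technical values: the mean of 27 spiked poly-A control probe sets was 6.53 to 6.83 on C24 arrays and 5.53 to 5.57 on Col arrays, and the GAPDH 3' minus 5' signal was 0.374 to 0.864 on C24 arrays and 0.0947 to 0.314 on Col arrays. The C24 room-temperature arrays stood furthest from Col: the root mean square difference between the C24 and Col group means was 0.761 at room temperature and 0.604 after 24 h. The 6 leaf mesophyll markers averaged 12.4 to 13.0 on every array, so leaf tissue was present throughout. The 3 root markers (PYK10, EXPA7, EXPA18) averaged 6.78 and 6.85 in C24 at room temperature, 7.86 and 7.89 after 3 h and 7.40 and 7.39 after 24 h, and they averaged 8.11 and 8.10 in Col after 24 h, against 8.69 and 8.93 in Col at room temperature. None of the 66 single-gene members was matched to a marker list by symbol or synonym. The part of these technical and tissue differences in the results below was not tested. In whole tissue, fewer cells of a type and less RNA per cell cannot be told apart.

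The levels of C24 relative to Col were not limited one by one by the rule, and they show where the C24 change started and ended. The rule limits them jointly: the C24 minus Col difference after 24 h had to exceed that at room temperature by at least 0.45, so a member could be low in C24 at the start, high at the end, or both. All differences were taken from 1 limma fit over the 10 arrays, with p-values adjusted by the Benjamini-Hochberg method over the 22746 probe sets, and a difference was called at an adjusted p below 0.05. The C24 room-temperature arrays entered the rule as well as the comparison at room temperature, so a low reading there favours both. The arrays after 24 h entered the rule too, which asked for a large rise in C24 and a bounded change in Col. This favours calls of higher in C24 after 24 h. The counts and p-values of members are therefore no independent support, and the shares of all probe sets are given for scale. Array probes are designed on the Col genome, so for any constant difference between ecotypes the transcript level and the match of the probe cannot be told apart.

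At room temperature, 71 of the 130 members were lower in C24 than in Col, against 23.4% of all probe sets, and 16 were higher, against 32.7% of all probe sets. The median difference of the members was -0.25, and that of all probe sets was 0.09. After 24 h of cold, 116 members were higher in C24 than in Col, against 28.1% of all probe sets, and 6 were lower, against 21.2% of all probe sets. The median difference was then 0.80 for the members and 0.05 for all probe sets. For 120 members both C24 arrays after 24 h lay above the other 8 arrays. The rule had set the C24 means apart beforehand, so this count is a description, and the 13.8% of all probe sets for which it held is given for scale only.

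The 2 comparisons together split the members. Since the rule makes the second difference exceed the first by at least 0.45, it favours a course from lower to higher. The split is therefore a description, and the shares of all probe sets are given for scale only. The commonest course, seen for 58 members, was lower in C24 at room temperature and higher in C24 after 24 h, with median differences of -0.46 and 0.65; 3.97% of all probe sets were called in that way. For 42 members no difference was called at room temperature (median -0.04) and C24 was higher after 24 h (median 0.90), a course of 8.52% of all probe sets. For 16 members, or 12.3%, C24 was higher at room temperature already (median 0.40) and more so after 24 h (median 1.21), against 15.6% of all probe sets. C24 was lower at room temperature and not called after 24 h for 7 members, lower in both for 6 (4.62%, against 11.4% of all probe sets), and not called in either for 1. A low start in C24 was thus common but not general: 43 members were not called at room temperature and 16 were higher in C24.

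**Figure D2:**
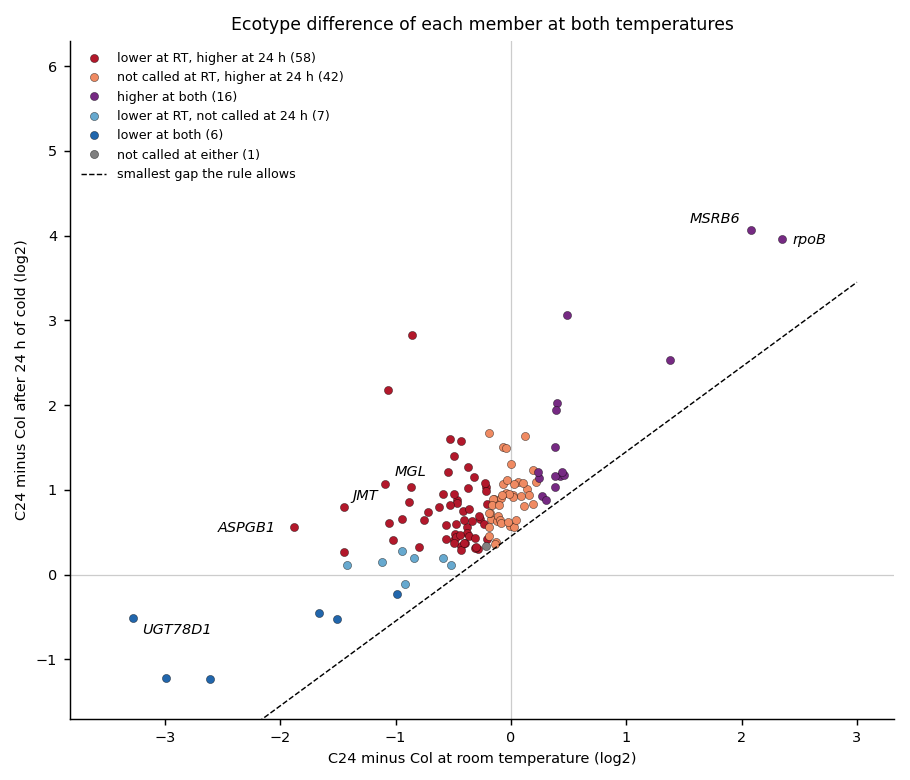
C24 minus Col after 24 h of cold (vertical, log2) against C24 minus Col at room temperature (horizontal, log2), 1 point per member, coloured by the limma calls; the dashed line is the smallest gap of 0.45 between both differences that the rule allows. The 58 red points lie left of 0 and above 0, UGT78D1 lies far left and below 0, and MSRB6 and rpoB lie apart at the upper right.

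The C24 arrays after 3 h gave a view of the start that does not use the C24 room-temperature arrays, although the rule held them within 0.5 of those. Against Col at room temperature, 42 members were lower in C24 after 3 h, where 21.9% of all probe sets were, and 30 were higher, where 26.0% of all probe sets were. The median difference was -0.06. Fewer members were thus called lower than with the C24 room-temperature arrays. This comparison spans 3 h of cold as well as the ecotypes.

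Among the members with a role in specialised metabolism, UGT78D1 had the largest C24 change of any member with a single gene. It encodes a flavonol 3-O-rhamnosyltransferase, which adds rhamnose to flavonols. Its log2 signal was 5.76 and 5.57 in C24 at room temperature, 5.53 and 5.61 after 3 h and 8.28 and 8.33 after 24 h. The Col arrays gave 8.80 and 8.83 after 24 h, against 8.95 and 8.93 at room temperature. The signal in C24 was thus low until 3 h and then came near the level that Col held in both conditions, without reaching it. The C24 change was 2.64 ± 0.08 (SE, n = 2 arrays per group), or 6.22-fold, which covers 80.5% of the gap to Col at room temperature. C24 minus Col was -3.27 at room temperature (limma, adjusted p = 4.94e-11) and -0.51 after 24 h (limma, adjusted p = 0.000244). It was the only single-gene member that was lower in C24 than in Col in both comparisons.

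JMT encodes jasmonic acid carboxyl methyltransferase, which makes methyl jasmonate. It read 3.78 and 3.53 in C24 at room temperature, 3.96 and 4.13 after 3 h and 6.16 and 6.07 after 24 h, and the earlier 4 values lie in the background range of the array, below the lower quartile of all probe sets. The signal in Col was 5.33 and 5.30 after 24 h, against 5.0 and 5.21 at room temperature. JMT in C24 was therefore below Col at first and above it after 24 h, with no overlap between the groups. Its C24 change was 2.46 ± 0.10 (SE), or 5.50-fold, a ratio that rests on background-range signals at room temperature. C24 minus Col was -1.45 at room temperature (limma, adjusted p = 3.99e-07) and 0.80 after 24 h (limma, adjusted p = 7.04e-05). Without the first C24 room-temperature array JMT would not have met the 3 h limit.

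UGT84A1 encodes a glucosyltransferase that makes glucose esters of hydroxycinnamic acids such as sinapate. It read 4.55 and 4.62 in C24 at room temperature, 5.13 and 5.01 after 3 h and 6.52 and 6.42 after 24 h. Col had 5.99 and 5.78 after 24 h, against 5.16 and 5.13 at room temperature. Both ecotypes had a higher signal in the cold, by 1.88 in C24 and 0.74 in Col, just inside the Col limit. C24 lay below Col by 0.56 on the log2 scale at room temperature and 0.58 above it after 24 h (limma, adjusted p = 0.000186 and 0.000172). UGT84A1 met the rule in 6 of the 10 fits that each left out 1 array.

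**Figure D3:**
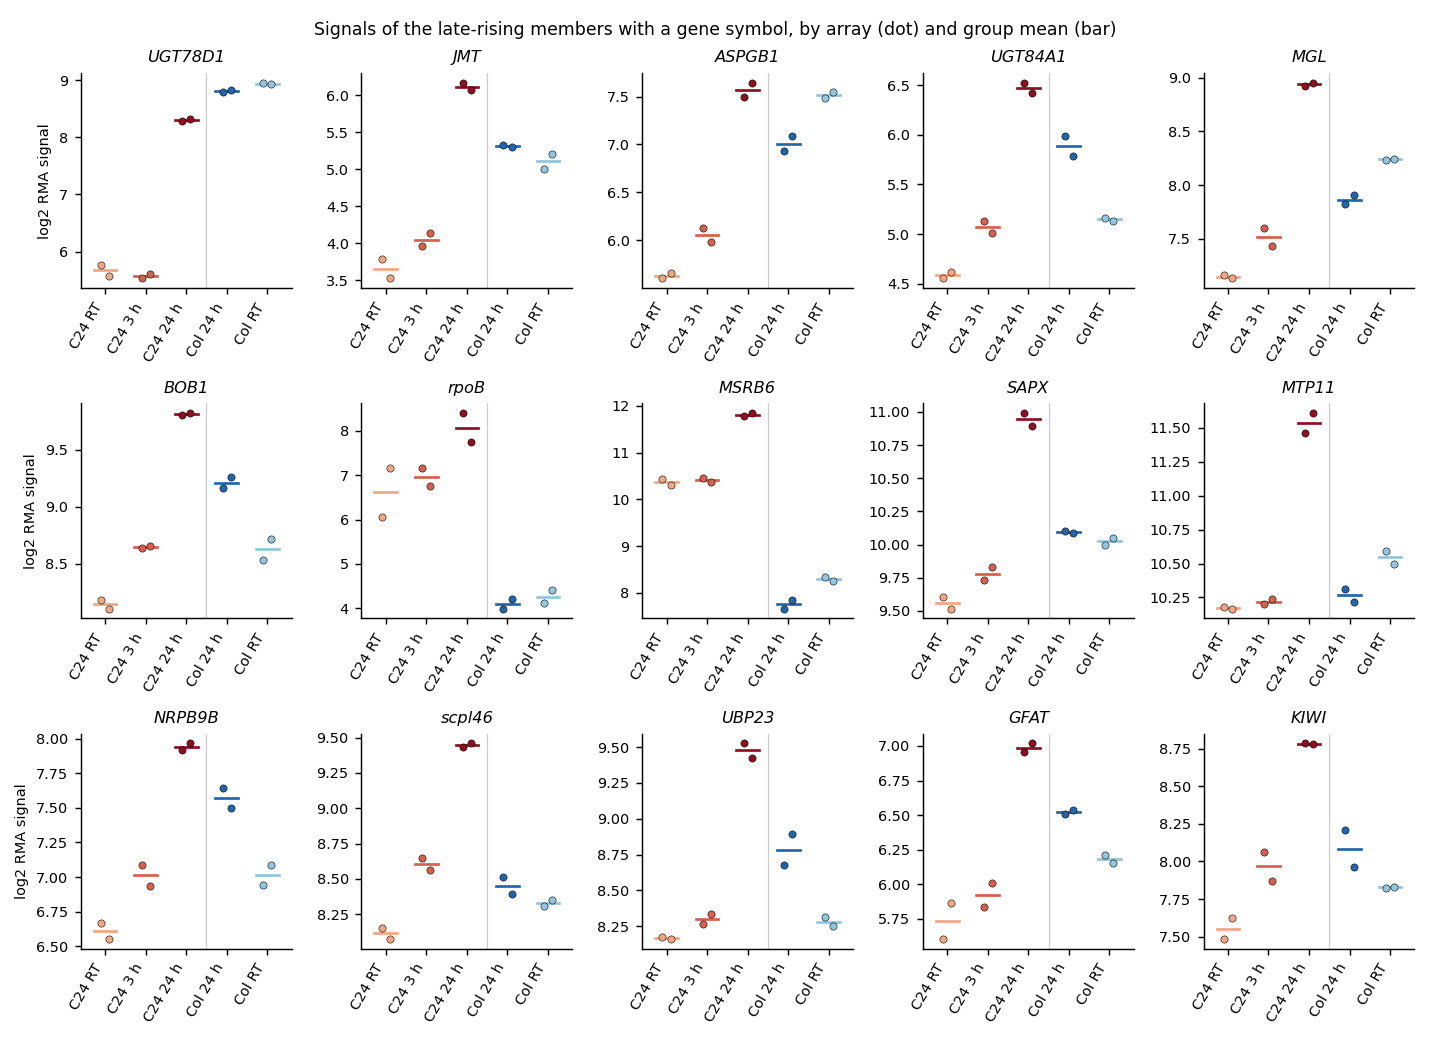
Log2 signal of the 15 members with a gene symbol in each group, with 1 dot per array and a bar at the mean of 2 arrays; C24 groups are red, Col groups blue, and each panel has its own vertical scale that does not start at 0. In 13 panels both C24 arrays after 24 h lie above all 4 Col arrays, and UGT78D1 and ASPGB1 are the exceptions.

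For the enzymes of amino acid breakdown the order of the ecotypes after 24 h was the opposite of that at room temperature. ASPGB1 encodes an asparaginase, which splits asparagine into aspartate and ammonium. It read 5.60 and 5.66 in C24 at room temperature, 6.13 and 5.98 after 3 h and 7.50 and 7.64 after 24 h. In Col it read 6.93 and 7.09 after 24 h, against 7.48 and 7.55 at room temperature. The C24 arrays after 24 h overlapped with those of Col at room temperature, and cold Col lay below both. The C24 change of 1.94 ± 0.09 (SE) equals 103% of the room-temperature gap. C24 minus Col was -1.88 at room temperature (limma, adjusted p = 9e-09) and 0.56 after 24 h (limma, adjusted p = 0.000234).

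MGL, the methionine gamma-lyase, breaks methionine down to methanethiol, ammonia and 2-oxobutanoate. It read 7.16 and 7.13 in C24 at room temperature, 7.60 and 7.43 after 3 h and 8.92 and 8.95 after 24 h. In Col it read 7.82 and 7.91 after 24 h, against 8.24 and 8.24 at room temperature. C24 stood below every Col array before the cold and above every Col array after 24 h. The C24 change was 1.79 ± 0.08 (SE), and C24 minus Col was -1.09 at room temperature (limma, adjusted p = 3e-07) and 1.07 after 24 h (limma, adjusted p = 5.44e-07).

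Among the members that protect against oxidation, MSRB6 stood apart by its level in C24 in all 3 groups. It encodes a B-type methionine sulfoxide reductase, which returns oxidised methionine in proteins to methionine. It read 10.44 and 10.31 in C24 at room temperature, 10.46 and 10.37 after 3 h and 11.79 and 11.85 after 24 h, and 7.66 and 7.85 in Col after 24 h, against 8.33 and 8.26 in Col at room temperature. No C24 array overlapped a Col array at any time. C24 minus Col was 2.08 at room temperature (limma, adjusted p = 3.43e-09) and 4.06 after 24 h (limma, adjusted p = 7.08e-11), which is 16.7-fold. It was the largest difference after 24 h among the members.

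SAPX, the stromal ascorbate peroxidase, removes hydrogen peroxide in chloroplasts and mitochondria. It read 9.60 and 9.52 in C24 at room temperature, 9.73 and 9.83 after 3 h and 10.99 and 10.90 after 24 h. The Col arrays read 10.10 and 10.09 after 24 h, against a mean of 10.02 at room temperature. The means of Col differed by 0.07. C24 at room temperature and after 3 h lay below every Col array, and C24 after 24 h lay above every Col array. C24 minus Col was -0.46 at room temperature (limma, adjusted p = 0.000252) and 0.85 after 24 h (limma, adjusted p = 2.9e-06).

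The members linked to RNA polymerases were rpoB, NRPB9B and KIWI. The plastid gene rpoB encodes the beta subunit of the plastid-encoded RNA polymerase and was the only one of the 66 single-gene members from an organelle genome. It read 6.06 and 7.17 in C24 at room temperature, 7.15 and 6.76 after 3 h and 8.39 and 7.75 after 24 h. The Col values were 4.00 and 4.21 after 24 h, against 4.12 and 4.41 at room temperature, all in the background range. The C24 arrays of one group differed by up to 1.11, and the C24 groups at room temperature and 3 h overlapped. Its standard error of 0.30 was the largest of all members, and with 1 array left out its C24 change ran from 0.90 to 2.01, so that it met the rule in 6 of 10 fits. C24 minus Col was larger than that spread, at 2.35 at room temperature (limma, adjusted p = 5.12e-05) and 3.96 after 24 h (limma, adjusted p = 1.02e-06).

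NRPB9B encodes a small subunit of RNA polymerase II that is shared with the plant polymerases of RNA silencing. It read 6.66 and 6.55 in C24 at room temperature, 7.09 and 6.94 after 3 h and 7.92 and 7.97 after 24 h, and 7.64 and 7.50 in Col after 24 h, against 6.95 and 7.09 in Col at room temperature. Its course in Col was thus similar in direction, with a difference of 0.55 against 1.34 in C24. KIWI encodes a single-stranded DNA-binding transcriptional coactivator. It read 7.49 and 7.62 in C24 at room temperature, 8.06 and 7.87 after 3 h and 8.78 and 8.78 after 24 h, and 8.21 and 7.96 in Col after 24 h, against 7.82 and 7.83 in Col at room temperature. Both were higher in C24 than in Col after 24 h, by 0.37 and 0.70 (limma, adjusted p = 0.00427 and 0.000111).

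BOB1 and UBP23 act on protein folding and turnover. BOB1 is a small chaperone with a NudC domain that is needed for development and heat tolerance. It read 8.19 and 8.11 in C24 at room temperature, 8.64 and 8.66 after 3 h and 9.80 and 9.82 after 24 h, and 9.16 and 9.26 in Col after 24 h, against 8.54 and 8.72 in Col at room temperature. Its change at 3 h in C24, 0.50, lay at the limit, and C24 exceeded Col by 0.60 after 24 h (limma, adjusted p = 8.09e-05). UBP23, a ubiquitin-specific protease that removes ubiquitin from proteins, read 8.17 and 8.16 in C24 at room temperature, 8.26 and 8.33 after 3 h and 9.53 and 9.43 after 24 h. In Col it read 8.67 and 8.89 after 24 h, against 8.31 and 8.25 at room temperature. UBP23 was the only symbol member not called between the ecotypes at room temperature (-0.12, limma, adjusted p = 0.267), and it was higher in C24 by 0.69 after 24 h (limma, adjusted p = 3.82e-05).

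MTP11, a manganese transporter of the cation diffusion facilitator family, read 10.18 and 10.17 in C24 at room temperature, 10.20 and 10.24 after 3 h and 11.46 and 11.61 after 24 h. In Col it read 10.32 and 10.21 after 24 h, against 10.59 and 10.50 at room temperature. C24 differed by 0.05 from its room-temperature mean after 3 h, and it exceeded Col by 1.27 after 24 h (limma, adjusted p = 1.79e-07). The serine carboxypeptidase-like gene scpl46 read 8.15 and 8.08 in C24 at room temperature, 8.65 and 8.56 after 3 h and 9.43 and 9.46 after 24 h, and 8.51 and 8.39 in Col after 24 h, against 8.31 and 8.35 in Col at room temperature. GFAT, which catalyses the first step of hexosamine synthesis, read 5.61 and 5.87 in C24 at room temperature, 5.84 and 6.01 after 3 h and 6.95 and 7.02 after 24 h, and 6.51 and 6.54 in Col after 24 h, against 6.21 and 6.15 in Col at room temperature. For all 3 the C24 arrays after 24 h lay above every other array. After 24 h scpl46 and GFAT exceeded Col by 0.99 and 0.47 (limma, adjusted p = 8.36e-07 and 0.00164).

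Of the 15 symbol members, 12 were lower in C24 than in Col at room temperature, 2 were higher (MSRB6 and rpoB) and 1 was not called. The lower calls of scpl46 (-0.21) and KIWI (-0.27) were lost when single arrays were left out, and that of scpl46 also under median centring. After 24 h, 14 were higher in C24 and 1, UGT78D1, was lower. Among the 51 locus-code members, 23 were lower in C24 at room temperature, 4 were higher and 24 were not called. After 24 h 49 of them were higher, none was lower and 2 were not called. Over all probe sets 23.4% were lower and 32.7% higher in C24 at room temperature, and 28.1% were higher and 21.2% lower after 24 h. The locus-code members changed in C24 after 24 h by 1.2 to 2.3, with a median of 1.38, and in Col by -0.48 to 0.75, with a median of 0.59.

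Some locus-code members were near background at room temperature in both ecotypes. AT1G06540 read 4.31 and 4.13 in C24 at room temperature, 3.95 and 4.02 after 3 h and 6.28 and 6.76 after 24 h, and 5.07 and 4.95 in Col after 24 h, against 4.47 and 4.11 in Col at room temperature. AT1G10585 read 3.80 and 4.07 in C24 at room temperature, 3.88 and 3.79 after 3 h and 5.64 and 5.62 after 24 h, and 4.52 and 4.62 in Col after 24 h, against 3.97 and 3.85 in Col at room temperature. For both, the ecotypes were not called apart at room temperature (limma, adjusted p = 0.709 and 0.838) and C24 was higher after 24 h by 1.51 and 1.06 (limma, adjusted p = 8.53e-06 and 3.33e-06). Over all members, both arrays lay in the background range for 7 in C24 at room temperature, for 7 in C24 after 3 h and for 0 in C24 after 24 h, and for 4 in Col after 24 h and 6 in Col at room temperature. The share of all probe sets was 23.7% to 23.9% in each group. The rule required a rise of at least 1.2 in C24, which favours the 0 after 24 h.

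Other locus-code members lay above that range on every array, AT5G37550 by little at first. AT1G65560 read 6.40 and 6.61 in C24 at room temperature, 6.66 and 6.63 after 3 h and 8.58 and 8.50 after 24 h, and 7.09 and 6.99 in Col after 24 h, against 6.49 and 6.59 in Col at room temperature. AT5G37550 read 4.90 and 4.72 in C24 at room temperature, 5.22 and 5.20 after 3 h and 6.83 and 6.90 after 24 h, and 5.86 and 5.96 in Col after 24 h, against 5.41 and 5.37 in Col at room temperature. No difference was called at room temperature in AT1G65560, at -0.04 (limma, adjusted p = 0.714), and C24 started lower in AT5G37550, by a difference of -0.58 (limma, adjusted p = 7.45e-05). After 24 h C24 was higher by 1.5 and 0.95 (limma, adjusted p = 1.08e-07 and 2e-06). The 25 single-gene members with the largest C24 change spanned 1.46 to 2.64 in C24 and -0.51 to 0.75 in Col, with medians of 1.64 and 0.58.

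AT1G20950 and AT5G17780 had lower Col arrays after 24 h than at room temperature, and they started differently in C24. The first, AT1G20950, read 9.56 and 9.60 in C24 at room temperature, a mean of 9.96 after 3 h and 10.81 and 10.86 after 24 h, and 10.40 and 10.44 in Col after 24 h, against 10.65 and 10.55 in Col at room temperature. This gene was lower in C24 by a difference of -1.02 at room temperature (limma, adjusted p = 3.01e-07). AT5G17780 read 6.48 and 6.53 in C24 at room temperature, 6.42 and 5.98 after 3 h and 7.92 and 7.79 after 24 h, and 6.29 and 6.16 in Col after 24 h, against 6.43 and 6.34 in Col at room temperature. This gene was not called at room temperature (0.12, limma, adjusted p = 0.431) and had, at 1.63, the largest 24 h difference of the locus-code members (limma, adjusted p = 9.15e-07). The gene AT5G39960 had the largest room-temperature difference in favour of C24 among them, at 0.42 (limma, adjusted p = 0.00818).

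The remaining locus-code members with large changes differed mainly in how Col moved. In Col after 24 h AT5G14580, AT5G09840, AT1G80750 and AT1G25260 lay 0.75, 0.74, 0.72 and 0.72 above room temperature, close to the limit, against 1.79, 1.77, 1.47 and 1.31 in C24. AT2G40360, AT1G04900, AT3G50910, AT2G34450 and AT1G09300 lay 0.69, 0.70, 0.67, 0.65 and 0.59 above room temperature in Col, against 1.64, 1.46, 1.49, 1.52 and 1.56 in C24. AT2G15340, AT2G21300 and AT1G48650 followed with 0.54, 0.46 and 0.44 in Col, against 1.46, 1.46 and 1.48 in C24. These 12 were higher in cold C24 than in cold Col, and all 12 were higher in cold Col than in Col at room temperature in the mean. Smaller Col differences were found for AT2G25625 and AT1G30070, at 0.22 and 0.14, against 1.52 and 1.49 in C24. AT4G02360 read 4.48 and 4.39 in C24 at room temperature, 4.38 and 4.70 after 3 h and 5.93 and 5.99 after 24 h, and 4.46 and 4.31 in Col after 24 h, against 4.68 and 5.05 in Col at room temperature. The Col arrays of AT4G02360 after 24 h lay in the background range, and its C24 room-temperature arrays lay in that range or at its edge. Its C24 arrays after 24 h lay above all others, and C24 exceeded cold Col by 1.58 (limma, adjusted p = 1.68e-06). AT1G18660 and AT2G01740 were already higher in C24 at room temperature, by 0.38 and 0.31 (limma, adjusted p = 0.00116 and 0.0314), and by 1.17 and 0.88 after 24 h (limma, adjusted p = 2.43e-07 and 4.56e-05).

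The largest C24 changes of all belonged to probe sets without a gene in the annotation. The first of them read 7.30 and 7.24 in C24 at room temperature, 7.62 and 7.61 after 3 h and 10.66 and 10.73 after 24 h, and 8.42 and 8.62 in Col after 24 h, against 8.30 and 8.37 in Col at room temperature. The next largest read 3.80 and 4.06 in C24 at room temperature, 4.13 and 4.42 after 3 h and 7.31 and 7.27 after 24 h, and 4.47 and 4.45 in Col after 24 h, against 4.73 and 4.84 in Col at room temperature. Their C24 changes were 3.42 ± 0.08 and 3.36 ± 0.11 (SE), both above the 2.64 of UGT78D1. For the second, the C24 arrays at room temperature and after 3 h and the Col arrays after 24 h lay in the background range. Its change therefore rests on background-range signals at room temperature. Of the 64 members without a single gene, 36 were lower in C24 than in Col at room temperature and 53 were higher after 24 h. The counts were 35 and 63 of the 66 with a single gene, and the shares of all probe sets were 23.4% and 28.1%.

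The members were set beside 2 groups chosen by like rules from the same arrays, which share their limits in part, so the counts are given as descriptions. The 91 probe sets that rose late in C24 and by at least 1.2 in Col too had no low start in C24: 16 of them (17.6%) were lower than Col at room temperature and 33 (36.3%) higher, with a median difference of 0.07. The 179 probe sets that had already risen in C24 by 3 h and stayed up, with Col inside the same limits, had a much lower start: 163 of them (91.1%) were lower than Col at room temperature, with a median of -2.06. The late C24 members stood between these, with 71 of 130 (54.6%) and a median of -0.25. After 24 h the order differed. C24 was higher than Col for 116 of 130 late C24 members (89.2%), for 51 of 91 late in both (56.0%) and for 67 of 179 sustained (37.4%), with medians of 0.80, 0.34 and -0.28. Over all probe sets 23.4% were lower and 32.7% higher in C24 at room temperature, and 28.1% were higher after 24 h.

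**Figure D4:**
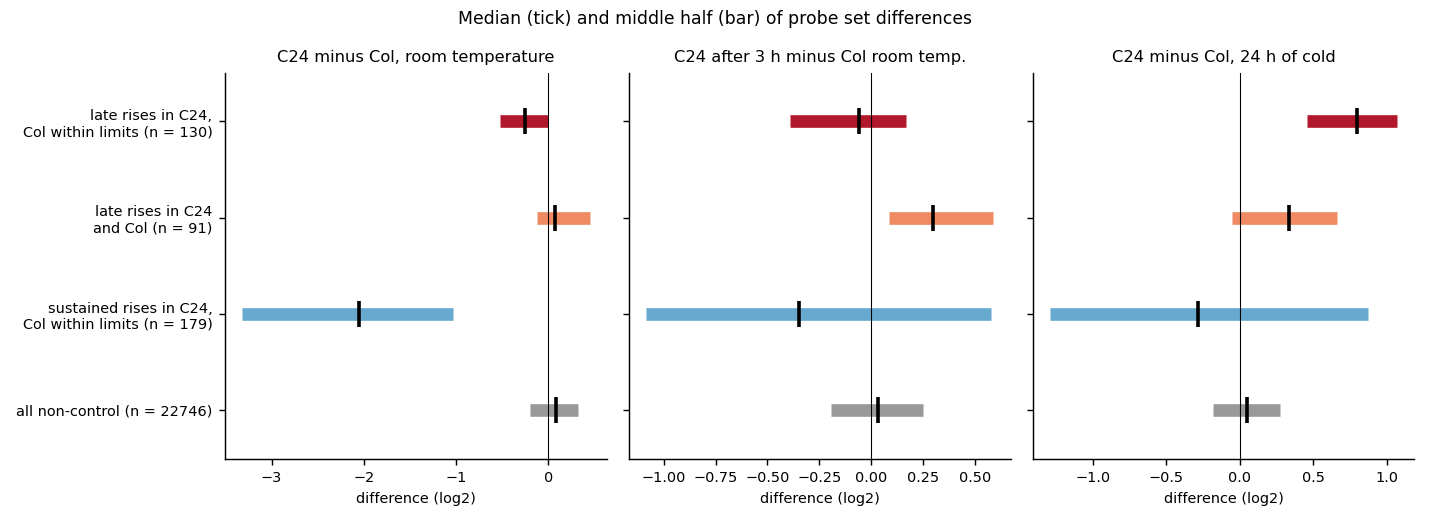
Difference between C24 and Col (horizontal, log2) in 3 comparisons (room temperature, 3 h of cold in C24 alone, 24 h of cold in both), as the median (tick) and the span from lower to upper quartile (bar) of each set of probe sets. The late C24 members have medians of -0.25, -0.06 and 0.80, and the sustained set has its lowest median, -2.06, at room temperature.

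The other genes of 3 pathways were read beside the members that belong to them, and over all probe sets 24.1% were higher and 25.4% lower in C24 after 24 h than at room temperature by the limma test, and 23.2% were higher and 25.9% lower in Col. The lists hold genes that were partly picked with earlier results of these arrays known, so their counts are no independent evidence of a direction. In the flavonoid list 4 genes were measured, and all 4 were higher in C24 after 24 h, UGT78D1 by the rule. UGT78D2, a flavonoid 3-O-glucosyltransferase, read 8.44 and 8.44 in C24 at room temperature, 9.60 and 9.66 after 3 h and 10.79 and 10.73 after 24 h, and 10.40 and 10.28 in Col after 24 h, against 9.55 and 9.61 in Col at room temperature. CHIL, a chalcone isomerase-like protein that helps the first steps of the pathway, rose in C24 by 3.60 after 24 h (limma, adjusted p = 8.16e-11), whereas its difference in Col was 0.20 (limma, adjusted p = 0.0693). UGT78D3, a flavonol 3-O-arabinosyltransferase, rose by 2.84 in C24 and 1.89 in Col (limma, adjusted p = 6.64e-08 and 2.73e-06). UGT78D2 and CHIL had both risen by 3 h, by 1.19 and 0.93 (limma, adjusted p = 1.54e-07 and 3.34e-06), and so fall outside the rule. UGT78D2 also lay just above the Col limit, with a Col change of 0.76 (limma, adjusted p = 4.66e-06). UGT78D3 is outside the rule for its rise in Col alone.

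Among 47 measured genes of the UDP-glycosyltransferase family, UGT78D1 and UGT84A1 were the members. Both count as higher in C24 by the rule. Of the other 45, 15 were higher and 11 lower in C24 after 24 h, with a median change of 0.03, and 19 were higher and 10 lower in Col, with a median of 0.05. Of 11 measured genes of the redox list, SAPX and MSRB6 were the members. Of the other 9, 5 were higher and 2 lower in C24 after 24 h, with a median of 0.37, and 1 was higher and 4 lower in Col, with a median of -0.16.

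Relatives of MSRB6 ran differently from it. MSRB5 read 8.93 and 8.80 in C24 at room temperature, 10.51 and 10.45 after 3 h and 8.69 and 8.72 after 24 h, and 8.79 and 8.75 in Col after 24 h, against 10.86 and 10.84 in Col at room temperature. It peaked in C24 at 3 h, and cold Col lay far below Col at room temperature. MSRB9 was lower in C24 than in Col by a difference of -3.67 at room temperature and of -1.48 after 24 h (limma, adjusted p = 4.25e-11 and 1.22e-07), opposite in sign to MSRB6. MSRB3 rose by 0.49 in C24 (limma, adjusted p = 0.00069) and differed by 0.10 in Col (limma, adjusted p = 0.371). For the thylakoid ascorbate peroxidase TAPX, the counterpart of SAPX on the membrane, the C24 signal fell by 0.87 on the log2 scale after 24 h (limma, adjusted p = 1.15e-06). The TAPX difference from room temperature was -1.11 in C24 after 3 h already and -0.33 in Col after 24 h (limma, adjusted p = 2.65e-07 and 0.00259).

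**Figure D5:**
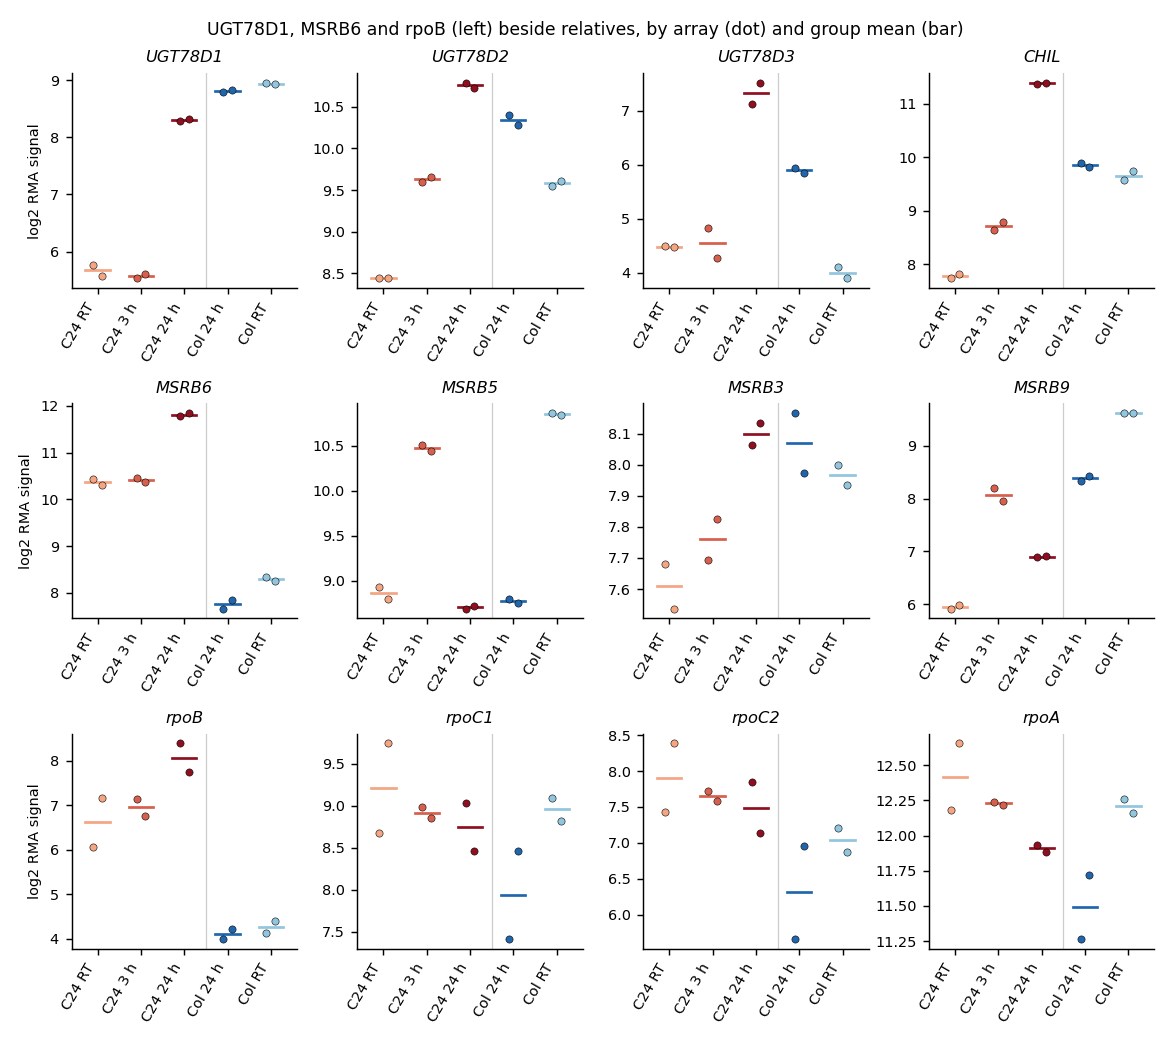
Log2 signal by group of the members UGT78D1, MSRB6 and rpoB (left column) and of 3 relatives each, with 1 dot per array, a bar at the mean of 2 arrays, C24 in red and Col in blue, and a separate vertical scale per panel that does not start at 0. MSRB6 is higher in C24 in every group while MSRB9 is lower, and the C24 means of rpoC1, rpoC2 and rpoA after 24 h lie below those at room temperature.

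Plastid genes other than rpoB were mostly lower in the cold or not called. The list of 69 plastid genes was drawn up after the values of rpoB had been seen. Of the 68 others, 1 was higher and 22 were lower in C24 after 24 h than at room temperature, with a median of -0.41, and 1 was higher and 31 lower in Col, with a median of -0.65. The 1 that was higher in C24 was rps16, a plastid ribosomal protein gene, which read 6.15 and 7.43 in C24 at room temperature, 8.66 and 8.79 after 3 h and 9.46 and 8.55 after 24 h. In Col it read 5.74 and 6.50 after 24 h, against 6.57 and 6.66 at room temperature. It rose in C24 by 2.21 after 24 h (limma, adjusted p = 0.000449) but also by 1.93 after 3 h (limma, adjusted p = 0.00146), which keeps it outside the rule. The genes rpoC1 and rpoC2, transcribed together with rpoB, differed in C24 after 24 h by -0.46 and -0.41 (limma, adjusted p = 0.326 and 0.427), and rpoA, another subunit, by -0.51 (limma, adjusted p = 0.0187). In Col, rpoC1 read 7.42 and 8.46 after 24 h, against 9.10 and 8.82 at room temperature, well above background where rpoB was not. Single arrays moved the plastid genes together. The second C24 room-temperature array read higher than the first for 63 of the 68, and the median C24 change was -0.09 with the first array alone and -0.74 with the second. The first Col array after 24 h read lower than the second for 61 of the 68, and the median Col change was -1.0 with the first array alone and -0.23 with the second.

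The members were spread over the genome. The 66 single-gene members matched entries of the RefSeq annotation (TAIR10.1), with 19 on chromosome 1, 13 on chromosome 2, 6 on chromosome 3, 10 on chromosome 4, 17 on chromosome 5 and 1 on the plastid chromosome. No pair of them lay within 2 genes of each other. None of the 66 was among the 6 genes measured for cold-regulated and LEA proteins, the 3 for anthocyanin synthesis, the 29 for photosystems and antennae, the 13 for sugar transport and raffinose or the 8 for ribosome production. The lists were matched by gene symbol and synonym, so any of the 51 members known by a locus code alone could have been missed. Whether genes of these classes are among those 51 was not examined. The other 64 members could not be matched to a list.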

How the data were processed

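Total RNA of 10 samples was hybridised to Affymetrix arrays, 1 array per sample. The deposited values are log2 signals, 1 per probe set, which the authors made with GCOS and RMA per the submitters' processing notes; versions and annotation are not given in the sources used here. RMA corrects background, equalises the distributions of the arrays by quantiles and summarises the probes, so a shift shared by most genes is removed and weak signals are compressed. No further normalization was applied. Of 22810 probe sets, 64 controls were left out. Gene names came from the array annotation table, updated through RefSeq. Of the remaining probe sets 13513 have 1 gene, 503 several and 8730 none.

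The members and all gene lists were chosen with earlier results of these data known. Differences between groups were fitted with limma 3.58.1 in R 4.3.3 (lmFit, eBayes) on all 10 arrays in 5 groups, with Benjamini-Hochberg adjustment over 22746 probe sets and a threshold of 0.05. Only differences between ecotypes are tested for members, since the rule used the changes in the cold. These differences share their arrays with the rule and so are not independent of it. Errors are standard errors with n = 2 arrays per group, and the number of arrays limits the precision. A signal below the lower quartile of its array counts as background range. Genes were named by a rule: the 25 single-gene members with the largest C24 change, members on a list, the 5 largest ecotype differences each way, and those nearest the limit; the rule's largest rises and falls of each list and its highest and lowest levels are described only in part; the remaining symbol members, 2 probe sets without a gene and several relatives were picked after their values were seen. A chitinase that shares the symbol CHI was taken off the flavonoid list. The fit was tested on simulated data. No sequence table for these genes was given here, so no promoter or protein is shown.

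Alternatives tried were quantile normalization, median centring, a trended robust prior, a filter on dim probe sets, a fit on only the 2 groups compared, a replicate block, other limits and leaving out each array.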

Additional observations from a re-analysis of the deposited data

Results flagged for a closer look

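In 9 members with a single gene both C24 arrays after 24 h lay above both C24 room-temperature arrays, while both Col arrays after 24 h lay below both Col room-temperature arrays. The C24 side is fixed by the rule, and the Col side held for 9 of 66 single-gene members (13.6%), against 36.3% of all probe sets. The difference between the ecotypes' changes was not tested, since the rule that chose the members used both changes. UGT78D1 changed by 2.64 in C24 and -0.13 in Col on the log2 scale. ASPGB1 changed by 1.94 in C24 and -0.51 in Col. The other symbols were MGL with 1.79 in C24 and -0.37 in Col, MSRB6 with 1.44 in C24 and -0.54 in Col, and MTP11 with 1.36 in C24 and -0.28 in Col. The locus-code members were AT4G02360 with 1.53 in C24 and -0.48 in Col, AT5G17780 with 1.35 in C24 and -0.16 in Col, AT1G20950 with 1.25 in C24 and -0.18 in Col, and AT4G23490 with 1.24 in C24 and -0.21 in Col. For AT4G02360 the Col arrays after 24 h lay in the background range. The median Col change of all members was 0.41, so these 9 belong to the 28 of 130 with a Col change below 0.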

How the results depend on the processing

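The number of members depended on the limits: a C24 limit of 1.0 gave 228, a C24 limit of 1.5 gave 28, and a Col limit of 0.5 gave 70, against the 130 reported. Quantile normalization gave 117, of which 109 were among the 130, and median centring gave 138, of which 118 were. Leaving out 1 array at a time gave 124 to 135 members, and 63 of the 130 met the rule in all 10 cases, 31 of them with a single gene. With the 130 members held, the counts of members called stayed within 1.5 times of those reported under the alternatives of normalization, prior, dim filter, 2-group fit, replicate block and left-out arrays; they were not recounted for the other limits. With 1 array left out they were 11 to 17 higher and 60 to 71 lower in C24 at room temperature, 113 to 117 higher and 5 to 6 lower after 24 h, and 22 to 29 higher and 37 to 42 lower for C24 after 3 h against Col at room temperature. Single-gene values were followed for the 15 members with a symbol only. Of these values 488 kept their direction and call, 7 lost the call and 0 reversed. The calls of the 51 locus-code members were not followed gene by gene. The 7 were room-temperature differences of scpl46 and KIWI. For scpl46 the call was lost under median centring (limma, adjusted p = 0.0523) and also when 1 room-temperature array was left out. For KIWI it was lost when 1 room-temperature array was left out. With the replicate number as a block, 16 members were higher and 69 lower in C24 at room temperature, 117 higher and 6 lower after 24 h, and 30 higher and 42 lower for C24 after 3 h against Col at room temperature. Arrays with the same number did not deviate together to any large extent (correlations of -0.12 to 0.12). Whether the numbers stand for paired samples cannot be told from this. A crossed pairing, chosen after seeing the data, gave 117 higher and 6 lower after 24 h. The plastid medians moved by over 1.5 times with single arrays. Signals in the background range understate folds.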
